A study of Saccharomyces cerevisiae with 16 samples.

Results

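Copper enters budding yeast (Saccharomyces cerevisiae) through plasma membrane transporters, is carried by soluble chaperones and is built into a few enzymes. A set of 10 genes of this route and of superoxide defence was followed in the transcriptome. The cells had a mutated histone H3, YFH1 turned off, or both, beside the wild type. The set was chosen with earlier results of these data known. The genes were taken by name: CTR1, CTR2 and CTR3 (transport), MAC1 (regulation), ATX1 and CCC2 (delivery to the secretory pathway), CCS1 and SOD1 (the copper-zinc superoxide dismutase and its chaperone), SOD2 (the manganese superoxide dismutase of mitochondria) and COX17 (delivery to cytochrome oxidase). They are 10 of the 6692 genes in the deposited table. All 10 passed the filter on low counts and were tested.

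The 16 libraries of polyadenylated RNA fall into 4 groups of 4 replicates, numbered 2 to 5. In the text, "H113N with YFH1 off" stands for the genotype H3H113N p(GAL1)-YFH1, "H113N" for H3H113N with its own YFH1, "WT with YFH1 off" for p(GAL1)-YFH1 with wild-type H3, and "WT" for the wild type. H113N replaces a histidine of histone H3 with asparagine, and the series title ties that residue to a cupric reductase activity of H3. YFH1 encodes yeast frataxin, a mitochondrial protein of iron-sulfur cluster assembly. In p(GAL1)-YFH1 the gene stands behind the GAL1 promoter, which is active on galactose and silent on glucose; an effect of the shutoff cannot be told apart here from an effect of the promoter swap. Per the labels' growth protocol, which is worded for YFH1-off cells and attached to every sample, cultures were taken out of YPG into SC medium and kept at 30 °C for 44 h with repeated dilution. The labels give no strain background beyond these alleles and do not say whether replicates came from separate clones or cultures, so p-values measure the spread between these samples.

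In yeast, low copper activates the transcription factor Mac1, which turns on the high-affinity transporters Ctr1 and Ctr3 and surface reductases such as Fre1 that supply Cu(I). Inside the cell, Atx1 hands copper to Ccc2, a P-type ATPase of the Golgi that loads the iron oxidase Fet3; ATX1 and CCC2 are known targets of the iron-responsive factor Aft1. Ccs1 inserts copper into Sod1, Cox17 carries copper for cytochrome oxidase in mitochondria, and Ctr2 releases copper from the vacuole.

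YFH1 itself was low in every library labelled off. It stood at 9.31, 11.2, 9.03 and 12.7 CPM (counts scaled by library size and TMM factor) in H113N with YFH1 off, against 49.8, 52.5, 58.5 and 46.5 CPM in H113N. In WT with YFH1 off it stood at 5.86, 7.14, 8.93 and 6.71 CPM, against 67.9, 63.2, 62.9 and 59.9 CPM in WT. The transcript remained detectable in all 8 libraries labelled off, and its log2 fold change was nearer to 0 in H113N (-2.30, SE 0.111) than in WT (-3.14, SE 0.121), with a difference of 0.84 (SE 0.17, adjusted p = 0.00113). Between genotypes YFH1 was higher in H113N than in WT among strains labelled off (0.55, SE 0.14, adjusted p = 0.00367). Among strains labelled on it was lower in H113N than in WT (-0.29, SE 0.0956, adjusted p = 0.02). That call was lost with library size as the only scaling (-0.22, adjusted p = 0.0793). It held in 14 of 16 fits without 1 library, but in only 1 of 4 fits without 1 replicate number (adjusted p up to 0.107). These gaps in YFH1 accompany every difference between the genotypes below, and their part in them was not tested. Adjusted p throughout is Benjamini-Hochberg over the 5876 genes tested by edgeR's quasi-likelihood test, a gene is called at an adjusted p under 0.05, and SE is that of the log2 fold change.

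Total counts ran from 6694390 to 10663540 per library. A pair of libraries stood apart in genes that matter here. Replicate 2 of WT with YFH1 off had CTR1 at 0.307 times the mean of the other 3 libraries of its group and CTR3 at 0.373 times, ranks 3 and 6 from the lowest of 5876 genes, while its median absolute log2 deviation over all genes was 0.103. Replicate 2 of WT had a median deviation of 0.197, against 0.0617 to 0.127 in the other 15 libraries. It was low in FTR1 (log2 -1.66 against the other 3), FET3 (-1.43), FRE1 (-1.33), FET4 (-0.935) and CCC2 (-0.85). For CTR1, CTR3, FRE1, CCC2, FET3, FTR1 and FET4, values of the shutoff in WT and of some other comparisons are also given without the library concerned. In bulk RNA, a change in the make-up of the culture and a change of RNA per cell cannot be told apart.

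With YFH1 off, 5 of the 10 genes changed in H113N, all of them higher, where 20.6% of all tested genes were called (11.8% higher and 8.73% lower). In WT 9 of the 10 changed, 7 higher and 2 lower, where 49.5% of all genes were called (24.5% higher and 25% lower). The median log2 fold change of the 10 was 0.272 in H113N, beside 0.0231 over all tested genes, and 1.29 in WT, beside 0.00867 over all tested genes. The test of the difference between both effects called 8 of the 10, where 30.8% of all genes were called: 6 had a lower value in H113N (13.8% of all genes) and 2 a higher one (17%). With YFH1 off, H113N differed from WT in 8 of the 10 genes (2 higher and 6 lower), where 52.4% of all genes were called (27.2% higher and 25.2% lower). With YFH1 on, 6 of the 10 differed (4 higher and 2 lower), where 46.2% were called (23% higher and 23.2% lower). The share of called genes among the 10 was nearest to the background in that comparison. Because the 10 were chosen with earlier results of these data known, their distance from the background is a description and no independent result.

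**Figure D1:**
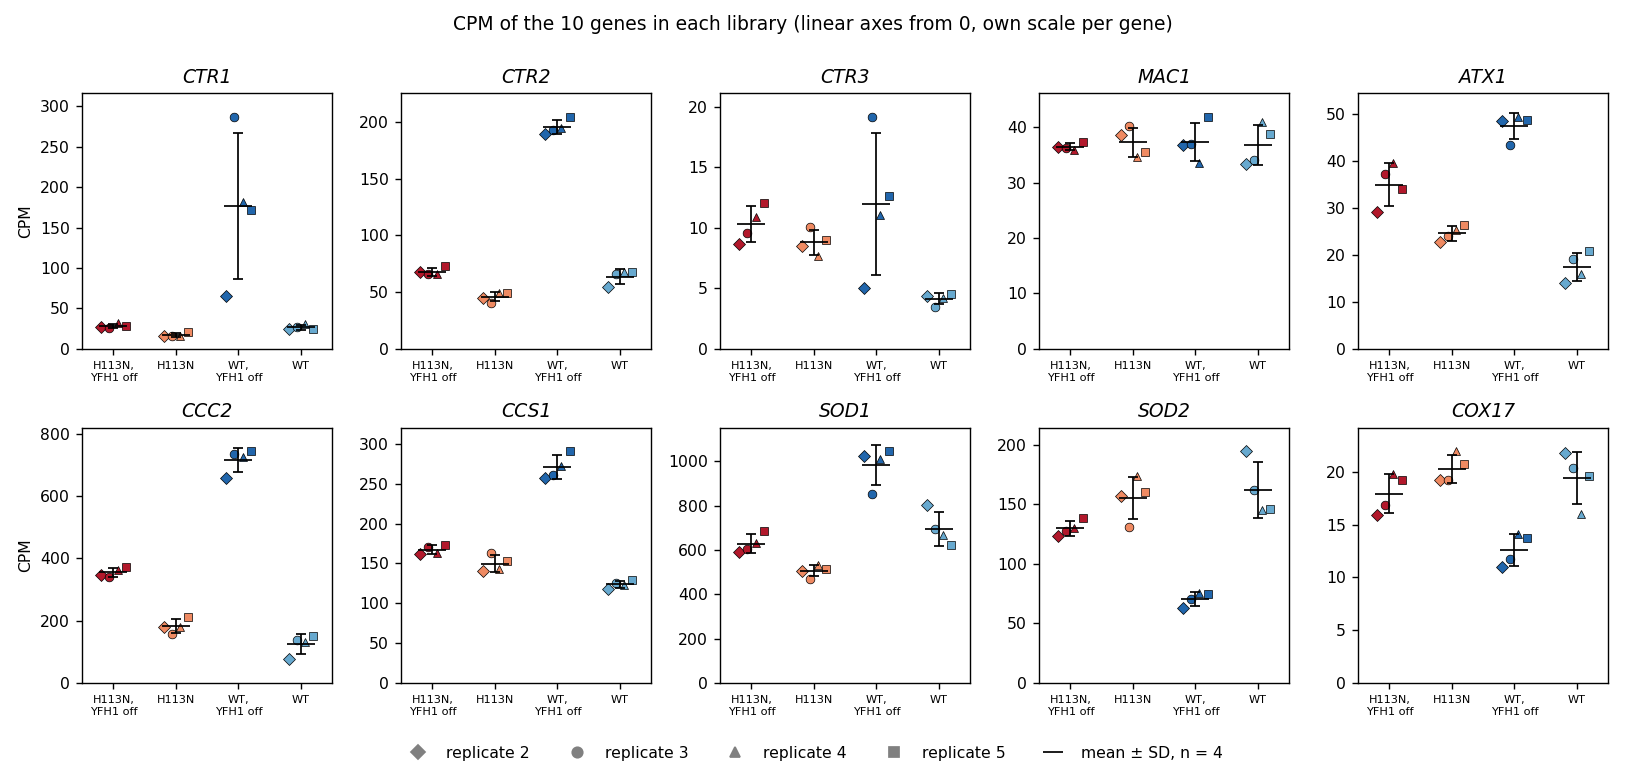
CPM of the 10 genes in each library, with 1 panel per gene on a linear axis starting at 0 and with its own scale; symbols mark replicates 2 to 5, and bars give the mean ± SD (n = 4). WT with YFH1 off does not overlap the other 3 groups in any gene but CTR3 and MAC1. The share of all genes separated in this way was not counted. Of all tested genes, 49.5% were called with the shutoff in WT and 52.4% between genotypes with YFH1 off. MAC1 lies between 33.3 and 41.9 CPM everywhere.

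CTR1 (YPR124W, chromosome XVI 786208 to 787428, R64) encodes the main high-affinity copper transporter of the plasma membrane. Letters of its promoter are shown because Mac1 is known to bind the element TTTGCTC, with GAGCAAA as its other strand. In the 500 bases before the CTR1 start codon a search of both strands found it 2 times, at 334 to 328 and, on the other strand, at 311 to 305 bases before the start. Among 6006 genes, 8.61% had at least 1 such match in the same window and 0.35% had 2 or more. FRE1, which encodes a surface metal reductase and is shown beside CTR1, had 3 matches, of which 2 are in the stretch below. The capitals mark the element in the RefSeq R64 sequence, the build that corresponds to the sacCer3 of the submitters' processing notes, read 5′ to 3′ on the strand of the gene.
CTR1, chrXVI:785863-785912, plus strand: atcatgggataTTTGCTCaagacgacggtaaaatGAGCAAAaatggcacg
FRE1, chrXII:568269-568316, plus strand: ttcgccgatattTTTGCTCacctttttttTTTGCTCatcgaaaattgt

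CTR1 stood at 26.9, 25.6, 32.2 and 28.2 CPM in H113N with YFH1 off, against 15.8, 15.7, 15.3 and 20.9 CPM in H113N. With wild-type H3 it stood at 65.3, 287.4, 182.3 and 172.2 CPM with YFH1 off, against 24.6, 26.8, 30.4 and 24.1 CPM in WT. All 4 libraries of WT with YFH1 off lay above all others, including the low replicate 2, and groups did not overlap within H113N. In H113N the log2 fold change was 0.74 (SE 0.33, adjusted p = 0.135) and did not pass the threshold. Without replicate 2 of WT with YFH1 off, which enters the shared estimate of spread, it was 0.72 and was called (adjusted p = 0.007). It was also called in a fit of the H113N groups alone (0.71, adjusted p = 0.000413). Calls came in 1 of 16 fits without 1 library, 1 of 7 other settings and 1 of 4 fits without 1 replicate number. Adjusted p reached 0.411 among these. In WT the log2 fold change was 2.74 (SE 0.298, adjusted p = 9.04e-07), and 3.0 (SE 0.161) without replicate 2 of WT with YFH1 off. Over the 16 fits without 1 library it ran from 2.40 to 3.0. The effects differed by -2.0 (SE 0.444, adjusted p = 0.00246), or by -2.29 (SE 0.235) without replicate 2 of WT with YFH1 off. Over the same 16 fits the difference ran from -2.29 to -1.69. Both values were called in all 16.

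Between genotypes, CTR1 with YFH1 off was lower in H113N than in WT (log2 -2.64, SE 0.293, adjusted p = 1.27e-06). The value was -2.91 (SE 0.158) without replicate 2 of WT with YFH1 off. Over the 16 fits without 1 library it ran from -2.91 to -2.32. With YFH1 on the value was -0.64 (SE 0.336, adjusted p = 0.131), and the groups did not overlap. It was called without replicate 2 of WT with YFH1 off (-0.63, adjusted p = 0.00818). Calls came in 1 of 16 fits without 1 library, 1 of 7 other settings and 1 of 4 fits without 1 replicate number. The group means were 28.2 ± 2.86 CPM in H113N with YFH1 off, 16.9 ± 2.65 CPM in H113N, 176.8 ± 90.8 CPM in WT with YFH1 off, with WT at 26.5 ± 2.86 CPM (SD, n = 4 each). In order of level WT with YFH1 off came first and H113N last, and the pair between them, H113N with YFH1 off and WT, differed by less than their spread.

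CTR3 (YLR411W), the other high-affinity transporter, was a low transcript with 28 to 118 counts per library. Its levels were 8.68, 9.55, 10.9 and 12.1 CPM in H113N with YFH1 off, against 8.47, 10.1, 7.66 and 8.99 CPM in H113N. They were 5.0, 19.2, 11.1 and 12.6 CPM in WT with YFH1 off, against 4.37, 3.47, 4.22 and 4.53 CPM in WT. WT stood alone at the low end, and replicate 2 of WT with YFH1 off lay just above it. In H113N the log2 fold change was 0.23 (SE 0.249, adjusted p = 0.583), with overlapping groups. CTR3 rose with the shutoff in WT (log2 1.51, SE 0.281, adjusted p = 0.000282), and by 1.75 without that replicate 2. Over the 16 fits without 1 library the rise ran from 1.22 to 1.75. The difference between the effects was -1.28 (SE 0.378, adjusted p = 0.0167), and it was lost without replicate number 3 (-0.82, adjusted p = 0.141), 4 (-1.41, adjusted p = 0.0679) or 5 (-1.37, adjusted p = 0.0746).

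CTR3 was higher in H113N than in WT with YFH1 on (log2 1.07, SE 0.287, adjusted p = 0.00601). With YFH1 off the value was -0.20 (SE 0.244, adjusted p = 0.519); it was -0.44 and called without replicate 2 of WT with YFH1 off (adjusted p = 0.0398), and 0.08 without replicate 3 of that group. In the R64 reference a Ty2 transposon lies at chrXII:941192-947150 and ends 102 bases before the CTR3 start codon; such an insertion is known to reduce CTR3 expression in many laboratory strains, and the allele of these strains is not given in the sources used here. No TTTGCTC element was found in the 500 bases before CTR3, a window that holds part of that transposon in this reference. The ratio of CTR1 to CTR3 counts per kb was 1.64 ± 0.204 in H113N with YFH1 off, 1.15 ± 0.188 in H113N, 8.65 ± 0.884 in WT with YFH1 off and 3.85 ± 0.695 in WT (SD, n = 4 each), a description that was not tested.

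CTR2 (YHR175W), the vacuolar copper transporter, moved with little spread. It stood at 67.5, 66.0, 65.6 and 73.2 CPM in H113N with YFH1 off, against 44.9, 40.5, 48.8 and 49.6 CPM in H113N. It reached 189.4, 192.9, 194.5 and 204.5 CPM in WT with YFH1 off, against 54.1, 65.5, 67.3 and 67.9 CPM in WT. No replicate of either shutoff group overlapped its own control. CTR2 rose in H113N (log2 0.56, SE 0.0756, adjusted p = 6.29e-05) and in WT (1.62, SE 0.0736, adjusted p = 1.33e-11), and rose less in H113N (difference -1.05, SE 0.105, adjusted p = 9.67e-07). H113N was lower than WT with YFH1 off (-1.52, SE 0.0728, adjusted p = 5.8e-11) and with YFH1 on (-0.47, SE 0.0763, adjusted p = 0.000106). In order of level, H113N with YFH1 off and WT were neighbours and their ranges overlapped.

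MAC1 (YMR021C), which encodes the copper-sensing activator, did not pass the test in any of the 5 comparisons. Its means were 36.5 ± 0.652 CPM in H113N with YFH1 off, 37.2 ± 2.59 CPM in H113N, 37.3 ± 3.41 CPM in WT with YFH1 off, with WT at 36.8 ± 3.70 CPM (SD, n = 4 each). Log2 fold changes ran from -0.05 (SE 0.111) for the difference of effects to 0.02 (SE 0.0794) for the shutoff in WT, and adjusted p from 0.741 to 0.884. Mac1 is known to be regulated as a protein, by copper binding and turnover, which transcript levels do not measure.

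The other Mac1 targets did not move as a block. Of FRE1, FRE7, REE1 and IRC7, 3 rose with the shutoff in H113N (20.6% of all genes called) and 2 rose in WT (49.5% called), with medians of 0.469 in H113N and 0.438 in WT. The range was wide, up to 1.66 in H113N and 2.88 in WT, and the H113N count was 1 without replicate number 4 or 5, or without replicate 5 of H113N with YFH1 off alone. FRE1 stood at 411.1, 363.0, 368.9 and 402.6 CPM in H113N with YFH1 off, against 114.3, 108.5, 114.8 and 151.5 CPM in H113N. In WT with YFH1 off it stood at 514.4, 802.0, 617.8 and 658.1 CPM, against 41.0, 89.9, 97.7 and 123.3 CPM in WT, where replicate 2 is the lowest library; without it WT averaged 103.7 ± 17.5 CPM (SD, n = 3). FRE1 rose in H113N (1.66, SE 0.225, adjusted p = 6.97e-05) and rose less than in WT (difference -1.22, SE 0.313, adjusted p = 0.00704). Without replicate 2 of WT that difference was -0.98 (SE 0.18, adjusted p = 0.000252) and the rise in WT 2.64 (SE 0.142), against 2.88 with it. FRE1 is also known as a target of Aft1, so it is no marker of Mac1 alone.

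IRC7, a gene of cysteine metabolism, rose in H113N (0.50, SE 0.158, adjusted p = 0.034) and in WT (0.98, SE 0.158, adjusted p = 7.03e-05). REE1 rose in H113N (0.44, SE 0.122, adjusted p = 0.0162) and stood at -0.10 (SE 0.123, adjusted p = 0.521) in WT, with a difference of 0.54 (SE 0.173, adjusted p = 0.0251). FRE7, a reductase gene at 18 to 68 counts per library, stood at -0.03 in H113N (SE 0.266, adjusted p = 0.947) and at -0.11 in WT (SE 0.296, adjusted p = 0.776). In replicate 2 of WT with YFH1 off all 4 were low beside the other 3 libraries of the group, together with CTR1 and CTR3. The log2 values were -0.43 in FRE1, -0.49 in IRC7, -0.57 in REE1 and -0.79 in FRE7. Their ranks from the lowest of 5876 genes were 256, 191, 127 and 51. These values rest on that library alone, and whether the drop is particular to Mac1 targets was not tested. In that library FET3 stood at 0.10, FTR1 at 0.14, CCC2 at -0.16, ATX1 at 0.04 and MAC1 at -0.03 on the same scale, while FET4, which is no gene of this list, was low there too (-0.57). With YFH1 on, REE1 was lower in H113N than in WT (-0.34, adjusted p = 0.0317), and without replicate 2 of WT no gene of this list was called in that comparison (0 of 4).

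**Figure D2:**
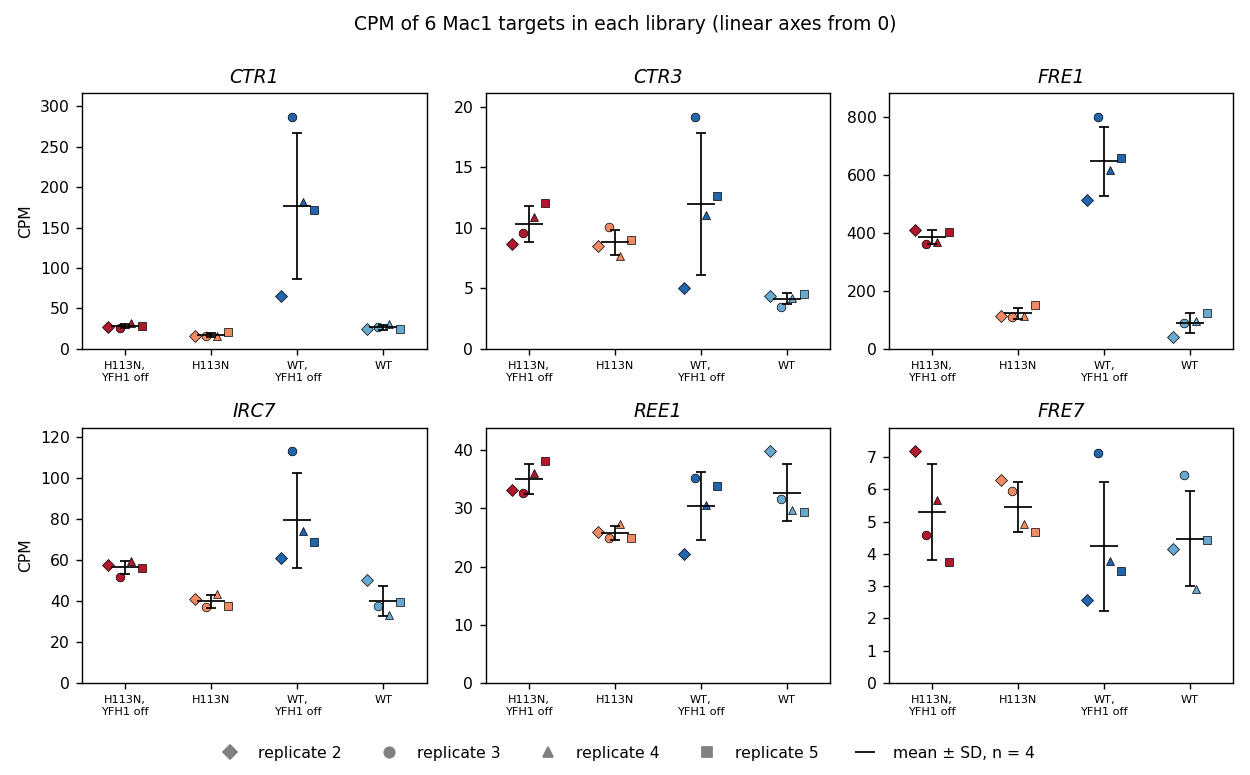
CPM per library of the Mac1 targets CTR1, CTR3, FRE1, IRC7, REE1 and FRE7, on linear axes starting at 0, with 1 symbol per replicate number and the mean ± SD (n = 4). In WT with YFH1 off the diamond of replicate 2 is the lowest of its group in all 6 panels, at 65.3 CPM for CTR1. The share of all genes that are lowest in this library was not counted.

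Both genes of copper delivery to the secretory pathway rose with the shutoff in both genotypes. CCC2 (YDR270W, chromosome IV) and ATX1 (YNL259C, chromosome XIV) are shown with the core of the Aft1 element, TGCACCC, which reads GGGTGCA on the other strand. The 500 bases before CCC2 held it 2 times and those before ATX1 1 time. Over 6006 genes 2.33% had at least 1 match in this window and 0.2% had 2 or more. Capitals mark the element in the R64 sequence, 5′ to 3′ on the strand of the gene.
CCC2, chrIV:1005375-1005446, plus strand: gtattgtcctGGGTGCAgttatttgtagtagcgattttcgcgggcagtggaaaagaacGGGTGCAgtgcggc
ATX1, chrXIV:157966-157991, minus strand: ttttttttggGGGTGCAaagttggca

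CCC2 stood at 345.3, 338.8, 363.6 and 372.3 CPM in H113N with YFH1 off, against 180.5, 157.4, 180.1 and 213.2 CPM in H113N. It reached 659.3, 735.7, 724.2 and 745.4 CPM in WT with YFH1 off, against 77.8, 138.5, 130.0 and 152.3 CPM in WT. The 4 groups were ordered WT with YFH1 off, H113N with YFH1 off, H113N and WT, and no neighbouring ranges overlapped. CCC2 rose in H113N (log2 0.96, SE 0.143, adjusted p = 0.000155) and in WT (2.52, SE 0.15, adjusted p = 4.1e-10), with a difference of -1.57 (SE 0.202, adjusted p = 1.65e-05). Without replicate 2 of WT the rise in WT was 2.35 (adjusted p = 1.96e-14) and the difference -1.40 (adjusted p = 6.72e-09). With YFH1 on it was higher in H113N than in WT (0.55, SE 0.144, adjusted p = 0.00512), a value that was 0.38 (adjusted p = 0.000702) without replicate 2 of WT. With YFH1 off it was lower in H113N than in WT (-1.01, SE 0.142, adjusted p = 1.58e-05).

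ATX1 followed the same order at a lower level. It stood at 29.1, 37.2, 39.6 and 34.0 CPM in H113N with YFH1 off, against 22.7, 24.1, 25.3 and 26.4 CPM in H113N. Its CPM were higher still, at 48.5, 43.4, 49.5 and 48.8, in WT with YFH1 off, against 14.0, 19.1, 15.9 and 20.8 CPM in WT. Again no neighbouring ranges overlapped. The log2 fold change with the shutoff was 0.51 in H113N (SE 0.109, adjusted p = 0.00317) and 1.45 in WT (SE 0.113, adjusted p = 1.45e-08), and the difference was -0.94 (SE 0.157, adjusted p = 0.000215). H113N was lower than WT with YFH1 off (-0.44, SE 0.104, adjusted p = 0.00191) and higher with YFH1 on (0.49, SE 0.117, adjusted p = 0.00262).

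The oxidases that receive this copper, and the iron permeases they work with, all rose. FET3 and FET5 encode multicopper oxidases of the plasma membrane and the vacuole, and FTR1 and FTH1 their permeases; all 4 rose in H113N (median 0.906, with 11.8% of all genes called higher) and in WT (median 2.26, with 24.5% called higher), and all 4 rose less in H113N (median difference -1.45, with 13.8% of all genes lower in this test). Without replicate 2 of WT the medians were 2.07 in WT and -1.20 for the difference, with all 4 still called. FTH1 lies on chromosome II, whose genes as a whole had a median of -0.172 with the shutoff in H113N, 0.009 in WT and -0.159 for the difference; the part of this in its values was not tested. In H113N 1 of the 4 was called without replicate number 3 and 2 without number 4. FET3 averaged 5767 ± 168.6 CPM in H113N with YFH1 off and 2938 ± 422.6 CPM in H113N, and 8353 ± 334.1 CPM in WT with YFH1 off, with WT at 1733 ± 659.6 CPM (SD, n = 4 each). Without replicate 2, WT averaged 2056 ± 165.1 CPM. Without that library FET3 rose by 2.02 in WT, against 2.27 with it, and FTR1 by 2.45, against 2.72. Of the 5 genes of low-affinity and divalent metal transport, 3 rose and 1 fell in H113N, where 20.6% of all genes were called, and 4 rose and 1 fell in WT, where 49.5% were called. The gene that fell in H113N was BSD2 (-0.30, adjusted p = 0.00191), which controls metal transporter turnover and also lies on chromosome II; it rose in WT (0.32, adjusted p = 0.000347). FET4, a low-affinity iron and copper transporter, rose by 1.43 in H113N (SE 0.208, adjusted p = 0.000123) and by 2.84 in WT (SE 0.22, adjusted p = 1.3e-08). The rise in WT was 2.66 without replicate 2 of WT and 2.96 without replicate 2 of WT with YFH1 off. SMF1, a manganese transporter of the cell surface, stood at -0.09 in H113N (adjusted p = 0.505) and fell in WT (-0.84, SE 0.0852, adjusted p = 3.56e-07).

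**Figure D3:**
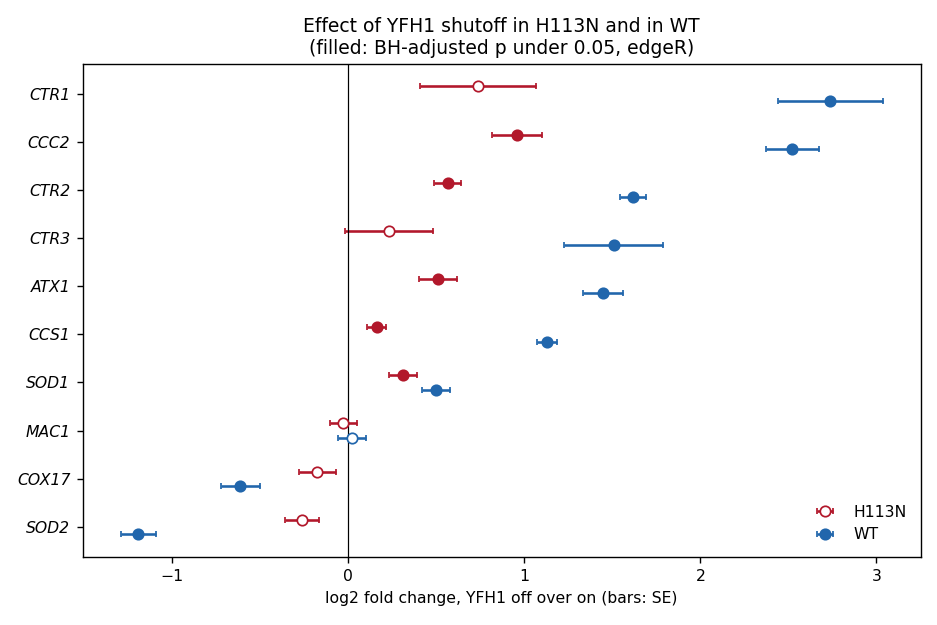
Log2 fold change of each of the 10 genes with YFH1 off over on, for H113N (red) and WT (blue); bars are SE, and filled symbols have an adjusted p under 0.05. The WT value lies farther from 0 than the H113N value in all genes but MAC1, and reaches 2.74 in CTR1.

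CCS1, the chaperone, and SOD1, the enzyme it loads, both rose in WT. CCS1 (YMR038C) stood at 162.4, 170.0, 163.3 and 173.7 CPM in H113N with YFH1 off, against 140.2, 163.4, 142.7 and 152.5 CPM in H113N. It reached 257.4, 261.4, 271.9 and 291.3 CPM in WT with YFH1 off, against 118.2, 125.1, 123.0 and 129.3 CPM in WT. In WT the groups were far apart, whereas in H113N 1 library with YFH1 on lay inside the range of those with YFH1 off. The log2 fold change of 0.16 in H113N (SE 0.0554, adjusted p = 0.0495) passed narrowly: it was called in 2 of 7 other settings, with adjusted p up to 0.263, and in 2 of 16 fits without 1 library. In WT the log2 fold change was 1.13 (SE 0.056, adjusted p = 4.15e-11). The difference of -0.97 (SE 0.0785, adjusted p = 9.42e-08) was called in every setting. With YFH1 on, CCS1 was higher in H113N than in WT (0.27, SE 0.0559, adjusted p = 0.000844), and with YFH1 off it was lower (-0.69, SE 0.0551, adjusted p = 2.42e-08).

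SOD1 (YJR104C) was the most abundant of the 10 per kb of gene in every group, at a mean of 1351 CPM per kb in H113N with YFH1 off, 1088 CPM per kb in H113N, 2114 CPM per kb in WT with YFH1 off and 1495 CPM per kb in WT. Its CPM were 591.3, 605.5, 631.5 and 685.3 in H113N with YFH1 off, against 507.2, 471.1, 530.9 and 515.0 in H113N. They were 1022.5, 852.8, 1010.4 and 1047.2 in WT with YFH1 off, against 801.0, 693.4, 665.9 and 620.9 in WT. Ranges did not overlap between a shutoff group and its own control, and the order of level was WT with YFH1 off, WT, H113N with YFH1 off and H113N, with the middle pair overlapping. SOD1 rose in H113N (log2 0.31, SE 0.0797, adjusted p = 0.0101) and in WT (0.50, SE 0.0797, adjusted p = 6.17e-05). The call in H113N was lost without replicate number 3, 4 or 5 (log2 0.26 to 0.33, adjusted p = 0.0605 to 0.0809). Here the effects were not shown to differ (difference -0.19, SE 0.113, adjusted p = 0.232), except without replicate 2 of WT, where the value was -0.26 (adjusted p = 0.0371). H113N was lower than WT both with YFH1 off (-0.65, SE 0.0798, adjusted p = 4.22e-06) and with YFH1 on (-0.46, SE 0.0798, adjusted p = 0.000202).

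SOD2 (YHR008C), the mitochondrial manganese enzyme, fell in WT. It stood at 123.0, 127.2, 129.7 and 138.8 CPM in H113N with YFH1 off, against 156.8, 131.0, 173.9 and 159.9 CPM in H113N. In WT with YFH1 off it fell to 62.6, 70.6, 75.2 and 74.6 CPM, against 194.9, 162.1, 145.2 and 146.1 CPM in WT. WT with YFH1 off lay below every other library, while the H113N groups overlapped. The log2 fold change was -0.26 in H113N (SE 0.0962, adjusted p = 0.0659) and -1.19 in WT (SE 0.0996, adjusted p = 3.34e-08), and the difference was 0.93 (SE 0.138, adjusted p = 6.97e-05). The H113N value was called in several other settings, among them the fit of the H113N groups alone (-0.29, adjusted p = 0.0118) and the fit without replicate 2 of WT (-0.26, adjusted p = 0.0104). H113N was higher than WT with YFH1 off (0.87, SE 0.0994, adjusted p = 1.74e-06), and the value with YFH1 on was -0.06 (SE 0.096, adjusted p = 0.638).

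The balance between the dismutase transcripts set WT with YFH1 off apart. The ratio of SOD1 to SOD2 counts per kb was 7.31 ± 0.115 in H113N with YFH1 off, against 4.95 ± 0.346 in H113N. It was 21.1 ± 2.68 in WT with YFH1 off, against 6.5 ± 0.303 in WT (SD, n = 4 each). The 4 libraries of WT with YFH1 off lay above all others, and the other 3 groups did not overlap among themselves. The ratio combines the values tested gene by gene above and was not tested itself.

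**Figure D4:**
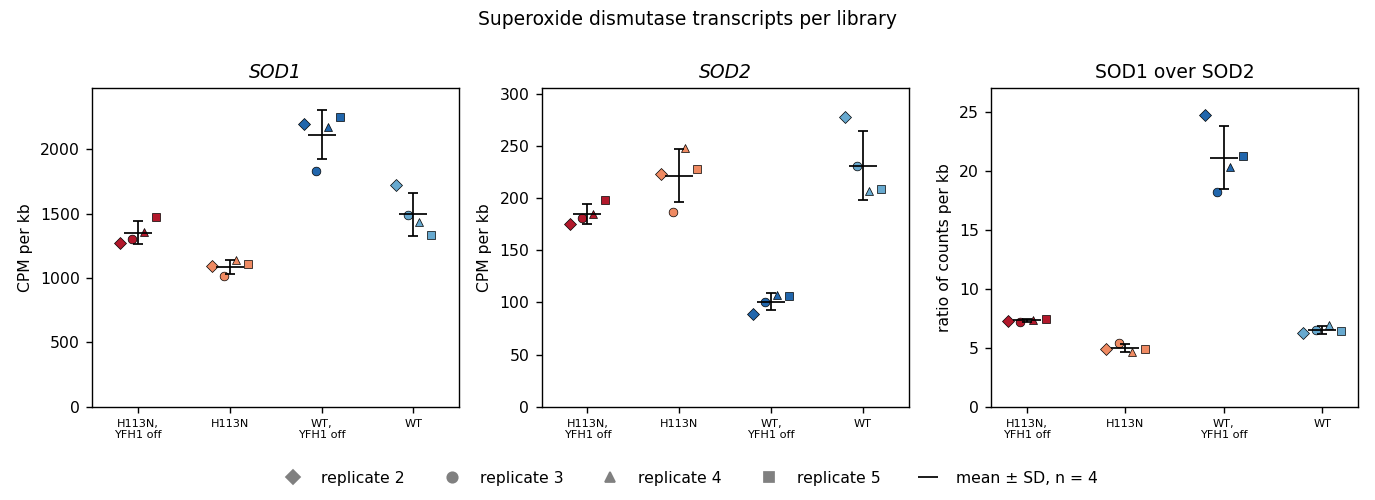
SOD1 and SOD2 in CPM per kb of gene, and the ratio of their counts per kb, in each library, on linear axes starting at 0 with the mean ± SD (n = 4). In WT with YFH1 off SOD1 is highest and SOD2 lowest, and the ratio averages 21.1.

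SOD2 needs manganese, and the 3 genes listed for manganese handling rose in both genotypes. Of all genes, 11.8% were called higher in H113N and 24.5% in WT. Whether these 3 genes change the manganese that reaches SOD2 was not tested. The list leaves out SMF1, the manganese transporter counted with divalent metal transport above. SMF1 fell in WT (-0.84, adjusted p = 3.56e-07) and stood at -0.09 in H113N. SMF2 of that same list rose in H113N (0.39) and in WT (0.81). MTM1, a mitochondrial carrier needed for SOD2 activity, rose in H113N (log2 0.49, SE 0.063, adjusted p = 4.38e-05) and in WT (0.89, SE 0.0632, adjusted p = 4.67e-09). ATX2, a Golgi manganese transporter, averaged 51.8 ± 2.75 CPM in H113N with YFH1 off and 33.9 ± 2.09 CPM in H113N, and 112.5 ± 8.46 CPM in WT with YFH1 off, with WT at 31.6 ± 1.70 CPM (SD, n = 4 each). It rose by 0.61 in H113N and by 1.83 in WT. PMR1, the Golgi calcium and manganese pump, also rose in both, by 0.14 in H113N (adjusted p = 0.0406) and 0.32 in WT (adjusted p = 2.16e-05). All 3 rose less in H113N, with a median difference of -0.396 (13.8% of all genes were lower in this test), where 2 of the 3 were called without replicate 2 of WT or replicate 2 of WT with YFH1 off.

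COX17 (YLL009C), the copper chaperone of cytochrome oxidase assembly, fell in WT. It stood at 15.9, 16.9, 19.8 and 19.2 CPM in H113N with YFH1 off, against 19.2, 19.2, 22.0 and 20.7 CPM in H113N. It stood at 11, 11.7, 14.1 and 13.7 CPM in WT with YFH1 off, against 21.8, 20.4, 16 and 19.6 CPM in WT. All 4 libraries of WT with YFH1 off lay below every other library. Its log2 fold change was -0.18 in H113N (SE 0.105, adjusted p = 0.268) and -0.61 in WT (SE 0.112, adjusted p = 0.000247). The difference of 0.44 (SE 0.154, adjusted p = 0.0413) held in only 6 of 16 fits without 1 library. With YFH1 off COX17 was higher in H113N than in WT (0.50, SE 0.112, adjusted p = 0.00138), and with YFH1 on the value was 0.06 (SE 0.106, adjusted p = 0.667).

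Of 9 further genes of copper delivery to cytochrome oxidase, 4 fell in each genotype, with medians of -0.22 in H113N, where 8.73% of all genes were called lower (20.6% in either direction), and -0.284 in WT, where 25% were called lower (49.5% in either direction). The WT count was 2 without replicate 2 of WT with YFH1 off and 7 with library size as the only scaling. SCO1, SCO2, CMC1 and CMC2 fell in H113N, and COX11, COX23, CMC1 and PET191 fell in WT. CMC1, a mitochondrial copper protein, fell by 0.42 in H113N (SE 0.0756, adjusted p = 0.000793) and by 0.57 in WT (SE 0.0765, adjusted p = 9.54e-06). CMC2 fell in H113N (-0.68, SE 0.103, adjusted p = 0.000196) and stood at -0.26 in WT (adjusted p = 0.059). SCO1, SCO2 and CMC2 lie, like FTH1 and BSD2, on chromosome II, whose genes had a median log2 fold change of -0.172 with the shutoff in H113N, 0.009 in WT and 0.206 in H113N over WT with YFH1 on; the part of this shift in their values was not tested. Medians of the 7 chromosomes that carry the 10 genes of the set lay between -0.051 and 0.06 over all 5 comparisons.

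Of the 4 genes listed for the metallothioneins and their activator, 2 could be tested. CUP2, which encodes the copper-sensing activator of the metallothioneins, stood at log2 -0.14 in H113N (SE 0.0645, adjusted p = 0.131) and rose in WT (0.59, SE 0.0634, adjusted p = 7.02e-07), with a difference of -0.74 (SE 0.0905, adjusted p = 9.3e-06). With YFH1 off CUP2 was lower in H113N than in WT (-0.73, SE 0.0632, adjusted p = 6.29e-08). The minor metallothionein CRS5 stood at 0.03 in H113N (adjusted p = 0.887) and 0.08 in WT (adjusted p = 0.61). CUP1-1 and CUP1-2 are identical copies with 0 and 1 count in all, and how reads matching several genes were counted is not given in the sources used here, so their level cannot be read from this table.

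**Figure D5:**
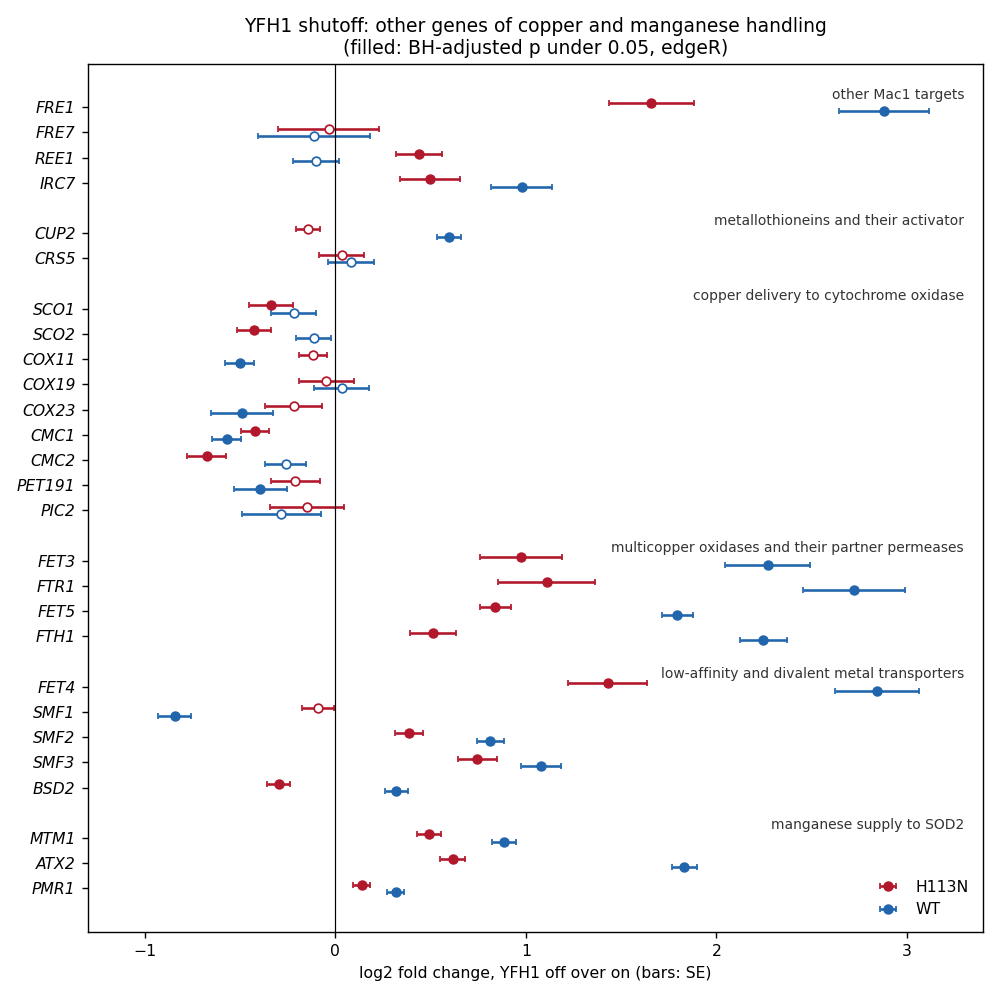
Log2 fold change with YFH1 off over on of 27 other genes of copper and manganese handling, for H113N (red) and WT (blue), ordered by gene list; bars are SE, and filled symbols have an adjusted p under 0.05. FRE1, FET4, FTR1, FET3 and FTH1 in WT lie farthest to the right, and the genes of copper delivery to cytochrome oxidase lie at or below 0 but for COX19 in WT (0.03).

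The genes with the most similar profiles over the 16 libraries are described by Pearson's r of log2 CPM among 5183 genes, with no test, since the libraries share 4 groups. For CTR1 they were RIM101 (r = 0.970), a regulator gene of the response to pH, YJL055W (0.963) and ERG6 (0.959), an enzyme gene of ergosterol synthesis. Pearson's r takes no account of the size of a change. Group means ran from 146.7 to 195.1 CPM in RIM101 and from 193.5 to 382.8 CPM in YJL055W. In CTR1 they ran from 16.9 to 176.8 CPM. ERG6 averaged 595.4 ± 10.5 CPM in H113N with YFH1 off, 498.1 ± 15 CPM in H113N, 1347 ± 72.5 CPM in WT with YFH1 off, with WT at 612.9 ± 28.5 CPM (SD, n = 4 each). For SOD1 they were SSO2 (0.983), TRR1 (0.971), which encodes thioredoxin reductase, and YFL034W (0.964). For SOD2 they were YMR122W-A (0.983), QCR7 (0.981) and QCR8 (0.976), the last 2 subunits of respiratory complex III. QCR7 averaged 63.1 ± 4.46 CPM in H113N with YFH1 off, 111.3 ± 7.20 CPM in H113N, 17.2 ± 1.73 CPM in WT with YFH1 off, with WT at 118.9 ± 21.0 CPM (SD, n = 4 each). SOD2 itself was the second gene on the list for COX17 (0.942).

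Per kb of gene, the order of the mean levels in WT with YFH1 off was SOD1, CCS1 (360.7 CPM per kb), CTR2 (342.7), CCC2 (237.5), ATX1 (214.2), CTR1 (144.8), SOD2 (100.8), COX17 (60.1), MAC1 and CTR3 (16.5). In WT the order was SOD1, SOD2 (230.8), CCS1 (165.2), CTR2 (111.8), COX17 (92.7), ATX1 (78.7), CCC2 (41.3), MAC1, CTR1 (21.7) and CTR3 (5.72). SOD2 and COX17 came lower in the order with YFH1 off, and CCC2 and CTR1 higher, while SOD1 and CTR3 held the top and the bottom of both.

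Adjusted p-values in the authors' deposited table fell on the same side of 0.05 as those computed here in 40 of 40 comparisons of the 10 genes, of which 28 were called. Over all 6692 genes the authors' value was under 0.05 in 1180 for the shutoff in H113N and 2867 in WT. Between genotypes it was under 0.05 in 3076 genes with YFH1 off and 2680 with YFH1 on.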

How the data were processed

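RNA-seq of 16 yeast libraries was analysed. Per the submitters' processing notes, FastQC, cutadapt, HISAT2, featureCounts and DESeq2 were named with the build sacCer3; strand and multi-mapping settings are not given in the sources used here. The authors deposited whole-number counts per gene for 6692 genes. They also deposited normalized counts (a linear signal: each library's counts over its own size factor) and adjusted p-values; both served for gene names and comparison. All columns of per-sample values were assigned by name.

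The deposited counts were tested in R 4.3.3 with edgeR 4.0.16 (limma 3.58.1): filterByExpr (about 1.17 CPM in at least 4 libraries), which left 5876 genes, TMM scaling, 1 mean per group over all 16 libraries, glmQLFit and glmQLFTest, 5 contrasts, and Benjamini-Hochberg adjustment with a threshold of 0.05. SE is the log2 fold change over the square root of F. The code was tested on simulated data. Alternatives were DESeq2 1.42.0 (size factors, Wald test), library size alone, other count filters, only the groups compared, a replicate block and leaving libraries out. Replicate numbers were checked for pairing by the correlation of deviations from group means.

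All members of the set and YFH1 are named. Other genes come whole from 6 lists (Mac1 targets, metallothioneins, copper delivery to cytochrome oxidase, oxidases with permeases, divalent metal transporters and manganese handling). Single members of these lists are named with their values. The 3 most similar profiles are named for CTR1, SOD1 and SOD2. Members and lists were chosen with earlier results of these data known. Motifs were searched on both strands of the 500 bases before each start codon of R64 (RefSeq). Total counts of 6694390 to 10663540 set the precision; intervals from counts would cover counting error only.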

Additional observations from a re-analysis of the deposited data

Results flagged for a closer look

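In H113N, CTR1 was higher in replicate 5 (20.9 CPM) than in the other 3 libraries (15.3 to 15.8 CPM); the gap was 0.914 of the range of the group, above Dixon's critical value of 0.829 for 4 samples. Chance flags about 1 group in 20, and 1 of 40 groups was flagged.

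The effect of the YFH1 shutoff differed between H113N and WT by the test of the difference itself in 8 of the 10 genes. Of all tested genes 30.8% were called in that test. On the log2 scale, H113N minus WT, the difference was -2.0 in CTR1, -1.57 in CCC2, -1.28 in CTR3, -1.05 in CTR2, -0.97 in CCS1 and -0.94 in ATX1. It was 0.93 in SOD2 and 0.44 in COX17, the pair that fell in WT. The call of COX17 held in 6 of 16 fits without 1 library. That of CTR3 held in 1 of 4 fits without 1 replicate number. All 8 effects were nearer to 0 in H113N. YFH1 itself was also reduced less there, and its part in these differences was not tested.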

How the results depend on the processing

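Of 1340 repeats of the tested values of the 10 genes, 1252 kept direction and side of the threshold, 43 fell short of it, 17 passed it anew and 28 changed sign. In H113N with the shutoff 5 of the 10 genes were called in the fit of all libraries and 3 to 6 when libraries were left out, not always the same ones, the lowest count without replicate number 3, 4 or 5. In WT 9 genes were called in every setting. With library size as the only scaling, which moved the median of all genes to -0.107 in WT with the shutoff and to 0.133 in H113N against WT with YFH1 off, MAC1 changed sign in WT (-0.093), in H113N against WT with YFH1 off (0.093) and in the difference (0.003), and SOD2 in H113N against WT with YFH1 on (0.011). None of these was called.

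Sign changes with libraries left out concerned values that were not called in the fit of all libraries. The lowest and highest values of MAC1 were -0.08 and 0.01 for the shutoff in H113N, -0.043 and 0.126 for the shutoff in WT, -0.084 and 0.028 for H113N against WT with YFH1 off, -0.047 and 0.105 with YFH1 on, and -0.179 and 0.011 for the difference. H113N against WT with YFH1 off ran from -0.444 to 0.121 in CTR3. With YFH1 on it ran from -0.167 to 0.042 in SOD2 and from -0.063 to 0.145 in COX17.

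With a replicate block 5 genes were called in H113N, 9 in WT, 8 and 6 between genotypes with YFH1 off and on, and 7 against 8 for the difference, where COX17 was lost (0.445, adjusted p = 0.0511). Deviations of libraries with the same number correlated between -0.173 and 0.228, so the numbers were not taken to pair the samples. Among the 10 genes depth limits CTR3 most, at 28 to 118 counts per library. The cause of these shifts was not tested.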
